A study of Mus musculus with 32 samples.

Results

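Kidney RNA from 4 female C57BL/6 mice killed 3 days after a single injection of cisplatin (Day 3) was compared gene by gene with kidney RNA from 4 female mice of Day 0. These 8 libraries belong to a series of 32 libraries, which covers males and females on Days 0, 2, 3 and 5, and they were selected by the sex and day in their labels. Mice carried the genotype listed as wt and were 6 to 8 weeks old per the study's methods, and each library came from 1 mouse. Cisplatin was given intraperitoneally at 20 mg/kg. Day 0 mice are the healthy baseline in the study's account, although the labels enter cisplatin as the treatment of Day 0 females too. Whole kidney tissue was sequenced, so fewer cells of a type and less RNA per cell cannot be told apart in any result.

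Cisplatin is a platinum drug that crosslinks DNA and is taken up by the proximal tubule, the first segment of the nephron, through organic cation transporters. DNA damage stabilizes the transcription factor p53, which switches on cell cycle arrest, repair and death genes. Injured tubule cells are known to lose transporters, to express markers such as KIM-1 (Havcr1) and NGAL (Lcn2), and to release chemokines that recruit leukocytes.

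Total counts were 23647121 to 35961325 per library at Day 0 and 27146123 to 33729363 at Day 3. The Day 0 libraries differed more among themselves than the Day 3 libraries: genes detected numbered 16265 in Day 0 mouse 3 and 22188 to 25410 in the other 7, and the share of counts from the mitochondrial genome was 4.49 to 19.7% at Day 0 and 9.24 to 10.5% at Day 3. The mean correlation with the Day 3 libraries was 0.934, 0.886, 0.824 and 0.950 for Day 0 mice 1 to 4, and that with their own group was 0.926, 0.910, 0.873 and 0.884 (Pearson's r of log2 CPM across genes, which are not independent replicates), so mice 1 and 4 were closer to Day 3 than to their group and mouse 3 lay farthest from both. Counts on Y-linked genes were 221, 5, 44 and 66 in Day 0 mice 1 to 4 and 0 in each Day 3 library. Hepatocyte genes were high in Day 0 mouse 2, and genes of the adrenal gland were high in Day 3 mouse 4 and, to nearly the same level, in Day 3 mouse 3; their values stand further on.

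Of 17065 genes tested with edgeR's quasi-likelihood test, 424 were differentially expressed genes (DEGs, past 1.5 in absolute log2 fold change, with a Benjamini-Hochberg adjusted p under 0.05). There were 87 DEGs higher at Day 3 (0.51% of the genes tested) and 337 lower (1.97%). With the adjusted p alone, 215 genes were higher (1.26%) and 730 lower (4.28%), and in what follows "rose" and "fell" are used of these genes. The other tools called more of all genes at the same adjusted p, DESeq2 7.62% higher and 14.3% lower and limma voom 23.5% higher and 24.3% lower, so their counts for a gene list are to be read against these shares. In edgeR with DESeq2's size factors the shares were 0.791% and 1.74%. The values of the 4 Day 3 and 4 Day 0 mice did not overlap for 3263 genes (19.1%). An adjusted p of at least 0.0465 was held by 944 of the 945 genes called, so the calls lay close to the threshold. Without Day 0 mouse 2 and Day 3 mouse 4, the libraries named for liver and adrenal genes, no gene passed (lowest adjusted p 0.0585, with 2590 genes at an unadjusted p under 0.05), and leaving out any one of Day 0 mice 1, 2 and 3 or Day 3 mice 1, 3 and 4 left 0 or 1 DEG, with 3639 to 5266 genes at an unadjusted p under 0.05. Without Day 0 mouse 4 the DEGs numbered 1972, and without Day 3 mouse 2 they numbered 306, and 420 of the 424 DEGs were among the 1972 and 175 among the 306.

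Day 3 mouse 2 had the lowest Day 3 level of 82 of the 87 DEGs that were higher (94.3%). Among the 337 DEGs that were lower, the highest Day 3 level was in mouse 2 for 153 (45.4%) and in mouse 4 for 142 (42.1%), and Day 0 mouse 4 had the lowest Day 0 level of 282 (83.7%).

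The p53 target genes held more rises than any other gene list examined. Of 34 p53 target genes tested, edgeR called 17 higher and none lower (1.26% and 4.28% of all genes), DESeq2 25 higher and 1 lower (7.62% and 14.3%), and limma voom 22 higher and 1 lower (23.5% and 24.3%). By edgeR each of the 17 was a DEG, and the median log2 fold change of the list was 1.84 against 0.03 over all genes tested. Levels are given as FPKM (fragments per kilobase of gene scaled to library size), and fold changes come from the fit to the counts. Cdkn1a, which encodes the cell cycle inhibitor p21 (chr17:29090976-29100727, GRCm38), measured 4.41, 5.30, 2.19 and 2.78 FPKM in Day 0 mice 1 to 4 and 96.6, 6.14, 79.7 and 88.3 FPKM in Day 3 mice 1 to 4. Day 3 mice 1, 3 and 4 lay far above Day 0 and mouse 2 lay just above the Day 0 range, without overlap between the groups. The log2 fold change was 4.20 (SE 0.760, adjusted p = 0.0465).

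Mdm2, the ubiquitin ligase that degrades p53, measured 4.94, 3.82, 4.25 and 5.71 FPKM at Day 0 and 23.6, 6.83, 18.8 and 22.3 FPKM at Day 3 (log2 fold change 1.94, SE 0.361). Its Day 3 mouse 2 was again the lowest of its group, close above Day 0. Ccng1, which encodes cyclin G1, measured 28.8, 28.4, 47.2 and 38.2 FPKM at Day 0 and 219, 43.3, 201 and 215 FPKM at Day 3 (log2 fold change 2.26, SE 0.468). Here Day 3 mouse 2 lay inside the Day 0 range. Eda2r, a death receptor of the TNF receptor family, was near 0 at Day 0 (0.0429, 0.0596, 0 and 0.160 FPKM) and measured 5.21, 0.335, 4.21 and 4.22 FPKM at Day 3 (log2 fold change 5.64, SE 1.03). Ckap2, a spindle-associated p53 target, measured 0.0688, 0.0168, 0 and 0.0835 FPKM at Day 0 and 2.49, 0.283, 1.59 and 2.10 FPKM at Day 3 (log2 fold change 5.13, SE 0.902). Ddias, a damage-induced apoptosis suppressor, had a log2 fold change of 5.18 (SE 0.982) from Day 0 levels of 0 to 0.123 FPKM. For these 3 low genes the groups did not overlap, and Day 3 mouse 2 was the lowest of its group.

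The other p53 targets that rose included the secreted stress factor Gdf15 (log2 fold change 3.00, SE 0.671), with 5.17, 7.88, 4.75 and 8.32 FPKM at Day 0 and 78.3, 6.02, 43.1 and 81.0 FPKM at Day 3. Its groups overlapped, because Day 3 mouse 2 lay within the Day 0 range. The nuclease Aen, the kinase Plk2, the RNA-binding protein gene Zmat3 and the death receptor Tnfrsf10b had log2 fold changes of 2.84, 2.44, 1.74 and 2.21. Among the 17 p53 targets that rose, 12 had no overlap between groups. Over all 34 p53 targets tested, 13 had none, where 19.1% of all genes tested had none.

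**Figure D1:**
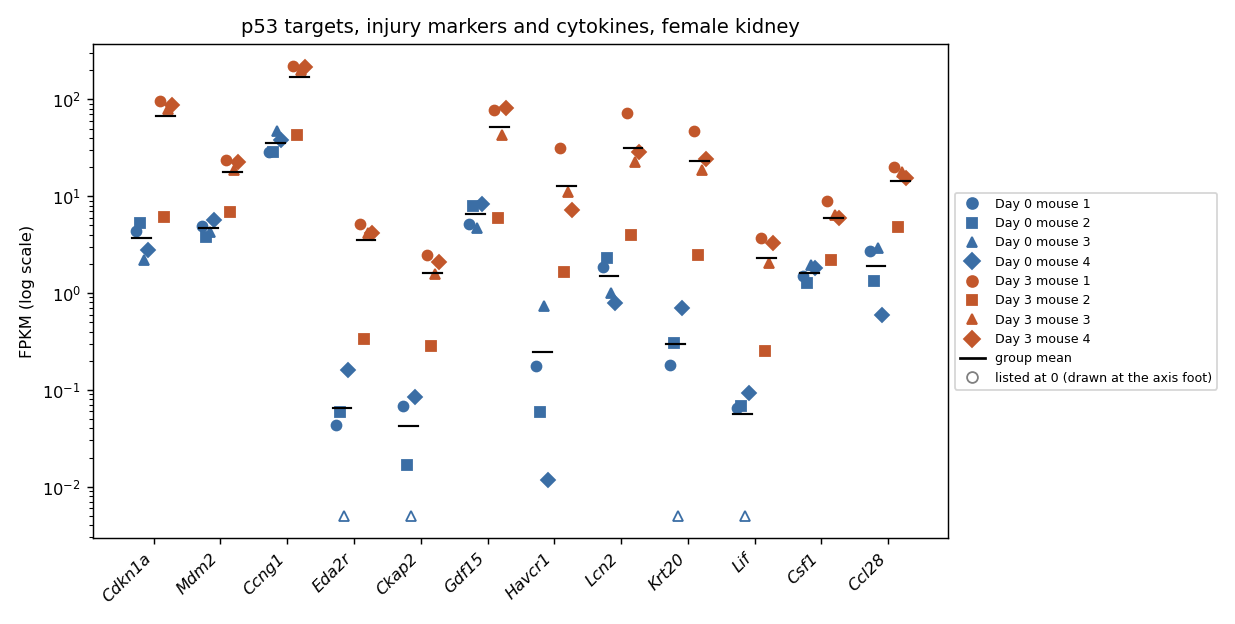
FPKM (log axis) of 12 genes that rose in each female mouse at Day 0 (blue) and Day 3 (orange), with a black line at the group mean and open symbols at the foot for values listed at 0. Day 3 mice 1, 3 and 4 lie above Day 0, while Day 3 mouse 2 lies between them and Day 0 or within the Day 0 range. For Cdkn1a, mouse 2 measured 6.14 FPKM against 79.7 to 96.6 FPKM in the others.

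Among markers of tubule injury, edgeR called 5 of 28 higher and none lower (1.26% and 4.28% of all genes), with a list median of 0.68, while DESeq2 called 10 higher and none lower and limma voom 7 higher and 5 lower. Krt20, an epithelial keratin of the superficial urothelium that injured tubules also express (chr11:99428403-99438150), measured 0.1805, 0.308, 0 and 0.697 FPKM at Day 0 and 46.7, 2.47, 18.8 and 24.0 FPKM at Day 3, and had the highest log2 fold change of the DEGs without overlap and with a mean of at least 1 FPKM (6.18, SE 1.06). Havcr1, the phagocytic receptor KIM-1 (chr11:46735080-46779578), measured 0.178, 0.0585, 0.744 and 0.0116 FPKM at Day 0 and 31.2, 1.65, 10.96 and 7.17 FPKM at Day 3 (log2 fold change 5.86, SE 1.205). Lcn2, the iron-binding protein NGAL (chr2:32384633-32388252), measured 1.86, 2.33, 1.002 and 0.788 FPKM at Day 0 and 71.6, 3.94, 22.7 and 28.5 FPKM at Day 3 (log2 fold change 4.40, SE 0.808). None of the 3 overlapped between groups, and within Day 3 each was highest in mouse 1 and lowest in mouse 2, a range of 18.9-fold for Krt20, 18.9-fold for Havcr1 and 18.2-fold for Lcn2. Tnfrsf12a, the TWEAK receptor, and Plaur, the urokinase receptor, rose by 2.43 and 1.47 on the log2 scale.

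Other injury markers did not pass the test. Spp1 (osteopontin) measured 661, 708, 1033 and 763 FPKM at Day 0 and 2901, 683, 1390 and 1581 FPKM at Day 3 (log2 fold change 1.06, SE 0.406, adjusted p = 0.12). Clu (clusterin) measured 70.2 to 180 FPKM at Day 0 and 69.5 to 187 FPKM at Day 3, with a log2 fold change of 0.11 whose sign changed with the setting. Vcam1, an adhesion molecule, measured 0.818 to 1.39 FPKM at Day 0 and 1.05 to 1.85 FPKM at Day 3 (log2 fold change 0.68, adjusted p = 0.106).

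Of 26 cytokines and chemokines tested, edgeR called 5 higher and 1 lower (1.26% and 4.28% of all genes), DESeq2 9 and 5, and limma voom 5 and 6, and the list median was 0.13. Lif, a cytokine of the interleukin-6 family, measured 0.0654, 0.0683, 0 and 0.0926 FPKM at Day 0 and 3.66, 0.250, 2.03 and 3.27 FPKM at Day 3 (log2 fold change 5.25, SE 0.944). Csf1, the growth factor of macrophages, measured 1.48, 1.26, 1.96 and 1.81 FPKM at Day 0 and 8.99, 2.18, 6.45 and 5.99 FPKM at Day 3 (log2 fold change 1.87, SE 0.379). Ccl28, a mucosal chemokine, measured 2.73, 1.34, 2.94 and 0.593 FPKM at Day 0 and 20.2, 4.78, 17.7 and 15.3 FPKM at Day 3 (log2 fold change 2.95, SE 0.579). In none of these genes did the groups overlap. Cxcl9, an interferon-induced T cell chemokine, was the member that fell, from 0.576, 1.97, 1.09 and 0.766 FPKM to 0.0650, 0.301, 0.125 and 0.138 FPKM (log2 fold change -2.80, SE 0.570).

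The neutrophil chemokine Cxcl1 measured 0.118, 0.303, 0 and 0.587 FPKM at Day 0 and 6.30, 0.366, 2.65 and 4.66 FPKM at Day 3, and missed the threshold (log2 fold change 3.72, SE 1.03, adjusted p = 0.0581), with Day 3 mouse 2 inside the Day 0 range. Cxcl2, of the same family, was too low to be tested and measured 0 to 0.0519 FPKM at Day 0 and 0.854, 0.0643, 0.396 and 0.350 FPKM at Day 3. Ccl20 had 0 counts in every Day 0 library and 0.345, 0.0156, 0.296 and 0.274 FPKM at Day 3; with 3 counts per Day 0 library as the floor it was at least 3.27-fold higher. The macrophage cytokine genes Il1b and Tnf and the monocyte chemokine Ccl2 did not pass, with log2 fold changes of -0.83 (adjusted p = 0.594), 0.48 (adjusted p = 0.745) and -0.39 (adjusted p = 0.698). Il6 had at most 3 counts in any of the 8 libraries, which is at the floor.

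Among 24 genes of NF-kB and STAT3 feedback and the acute phase response, edgeR called 3 higher and 1 lower (1.26% and 4.28% of all genes), DESeq2 7 higher and none lower, and limma voom 9 higher and 1 lower. Icam1, a leukocyte adhesion molecule, measured 1.51, 0.508, 0.568 and 2.34 FPKM at Day 0 and 11.6, 3.59, 8.35 and 9.11 FPKM at Day 3 (log2 fold change 2.72, SE 0.558). Socs3, the feedback inhibitor of STAT3 signaling, measured 1.01, 1.37, 0.769 and 0.808 FPKM at Day 0 and 11.4, 1.72, 6.26 and 8.58 FPKM at Day 3 (log2 fold change 2.82, SE 0.523). Birc3, an inhibitor of apoptosis induced by NF-kB, had a log2 fold change of 1.52 (SE 0.316). The member that fell was Orm1, an acute phase protein made by the liver, at 7.71, 154, 17.5 and 11.9 FPKM at Day 0 and 0.917, 4.97, 1.45 and 1.72 FPKM at Day 3 (log2 fold change -4.41). Its highest Day 0 value was in mouse 2, the library with high hepatocyte genes, and without that library the log2 fold change was -2.43. Of 22 cytokine receptors edgeR called 1 higher (1.26% of all genes), DESeq2 4 and limma voom 7. The edgeR call was Osmr, the receptor of oncostatin M (log2 fold change 1.26, SE 0.306), with overlap between the groups.

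Promoter sequences show where short motifs lie around the start sites of these genes. RefSeq promoters (GRCm38.p6, 250 bases before to 50 after the start) were matched by symbol for 55 of 87 DEGs that rose, 216 of 337 that fell and 12087 of 17062 gene symbols tested. The kB motif, GGNNTTTCC on either strand, had a match in 10.9% of promoters of DEGs that rose, 7.87% of those that fell and 7.26% over all. The antioxidant response element, TGACNNNGC, had one in 14.5%, 15.7% and 16.8%. The HNF1 motif, GTTAATNAT, matched 1.82%, 0% and 0.753%, and the full p53 site matched 0 promoters of either DEG set and 0.00827% over all. The shares were not tested. The p53 pattern allowed no spacer or mismatch and matched 1 of 12087 promoters. Its 0 in the DEG sets therefore does not show that these genes lack p53 sites. Shown, with matches in capitals, are Cxcl1, which holds 2 kB matches from positions -89 and -70 relative to the start, and the genes named by rule among the DEGs that rose whose window holds an antioxidant response element: Cdkn1a (from 28 after the start), Eda2r (from -137), Krt20 (from -63) and Lif (from -241).
Cxcl1, chr5:90890995-90891294, + strand: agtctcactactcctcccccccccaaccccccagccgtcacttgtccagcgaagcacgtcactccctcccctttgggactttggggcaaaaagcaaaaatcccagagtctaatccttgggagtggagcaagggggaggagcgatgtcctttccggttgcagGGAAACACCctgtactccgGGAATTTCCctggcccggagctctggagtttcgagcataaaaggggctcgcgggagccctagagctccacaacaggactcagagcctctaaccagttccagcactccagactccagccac
Cdkn1a, chr17:29093519-29093818, + strand: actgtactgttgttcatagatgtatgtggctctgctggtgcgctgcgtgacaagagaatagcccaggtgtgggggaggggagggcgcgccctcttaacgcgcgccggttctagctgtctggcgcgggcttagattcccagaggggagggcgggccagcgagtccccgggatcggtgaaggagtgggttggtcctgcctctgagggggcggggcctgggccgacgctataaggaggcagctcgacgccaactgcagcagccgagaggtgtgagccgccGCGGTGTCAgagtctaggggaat
Eda2r, chrX:97377160-97377459, - strand: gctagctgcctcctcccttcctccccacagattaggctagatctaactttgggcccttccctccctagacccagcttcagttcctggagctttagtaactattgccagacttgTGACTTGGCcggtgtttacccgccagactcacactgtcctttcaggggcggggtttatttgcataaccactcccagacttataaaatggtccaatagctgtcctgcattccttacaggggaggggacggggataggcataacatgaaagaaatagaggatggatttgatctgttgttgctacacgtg
Krt20, chr11:99438104-99438403, - strand: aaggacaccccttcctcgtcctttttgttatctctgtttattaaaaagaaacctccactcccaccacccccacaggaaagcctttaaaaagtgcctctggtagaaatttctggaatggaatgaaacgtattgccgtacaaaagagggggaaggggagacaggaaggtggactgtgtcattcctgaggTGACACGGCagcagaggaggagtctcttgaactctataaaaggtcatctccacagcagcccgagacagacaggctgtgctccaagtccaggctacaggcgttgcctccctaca
Lif, chr11:4257318-4257617, + strand: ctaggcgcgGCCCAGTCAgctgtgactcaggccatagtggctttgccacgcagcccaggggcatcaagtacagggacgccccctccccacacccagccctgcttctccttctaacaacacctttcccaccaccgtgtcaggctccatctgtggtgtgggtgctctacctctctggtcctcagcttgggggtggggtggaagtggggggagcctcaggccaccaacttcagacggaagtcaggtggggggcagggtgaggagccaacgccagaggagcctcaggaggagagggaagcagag
A match is a stretch of letters in a window, not a measured site.

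In the proximal tubule, edgeR called 4 of 43 transport genes lower and 1 higher (4.28% and 1.26% of all genes), with a list median of -0.36, while DESeq2 called 8 lower and 5 higher and limma voom 15 lower and 8 higher. Slc34a3, a sodium phosphate cotransporter, measured 41.3, 50.8, 62.5 and 51.5 FPKM at Day 0 and 9.10, 25.8, 12.0 and 11.5 FPKM at Day 3 (log2 fold change -1.82, SE 0.318). Slc22a2, the organic cation transporter OCT2 that carries cisplatin into the cell, measured 70.8, 70.9, 55.6 and 63.7 FPKM at Day 0 and 39.0, 41.6, 42.0 and 42.4 FPKM at Day 3 (log2 fold change -0.66, SE 0.155, adjusted p = 0.048). In both genes the groups did not overlap, and for Slc22a2 Day 3 mouse 2 lay with the other Day 3 mice. Slc7a13, a cystine and aspartate transporter, measured 24.6, 1.48, 1.98 and 2.31 FPKM at Day 0 and 0.115, 0.393, 0.0620 and 0.0909 FPKM at Day 3 (log2 fold change -5.53, SE 1.17). Its Day 0 mouse 1, which also had the most counts on Y-linked genes, was 10.7 times as high as the next Day 0 mouse, and without it the log2 fold change was -3.49 (SE 0.657). Amn, the membrane partner of cubilin, had a log2 fold change of -1.49 (SE 0.279). Slc20a2, a phosphate transporter of wide expression, was the member that rose (log2 fold change 0.58, SE 0.138).

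The main phosphate transporter Slc34a1 measured 856, 891, 862 and 1232 FPKM at Day 0 and 237, 679, 279 and 306 FPKM at Day 3. The groups did not overlap, but the test did not pass (log2 fold change -1.36, SE 0.370, adjusted p = 0.0556). The glucose transporter Slc5a2, the organic anion transporter Slc22a6 and the endocytic receptor Lrp2 did not pass either, with log2 fold changes of -0.29 (adjusted p = 0.725), -0.28 (adjusted p = 0.492) and -0.36 (adjusted p = 0.52). For Slc5a2 and Slc22a6 the sign changed when Day 0 mouse 4 was left out.

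Of 31 genes of the thick ascending limb and distal convoluted tubule, edgeR called 2 lower and 1 higher (4.28% and 1.26% of all genes), DESeq2 5 lower and 3 higher, and limma voom 11 lower and 4 higher. Pvalb, the calcium buffer parvalbumin, measured 59.3, 117, 248 and 33.4 FPKM at Day 0 and 5.63, 13.6, 5.52 and 9.05 FPKM at Day 3 (log2 fold change -3.74, SE 0.621). Fxyd2, the gamma subunit of the sodium pump, measured 837, 1323, 1520 and 492 FPKM at Day 0 and 237, 334, 256 and 263 FPKM at Day 3 (log2 fold change -1.93, SE 0.362). Trpv5, an apical calcium channel, rose from 1.71 to 2.39 FPKM at Day 0 to 3.22 to 6.12 FPKM at Day 3 (log2 fold change 1.18, SE 0.240). Umod, Slc12a1, Slc12a3, the magnesium channel Trpm6, Kl and Egf did not pass. Uromodulin (Umod) measured 547, 324, 196 and 101 FPKM at Day 0 and 719, 798, 646 and 398 FPKM at Day 3 (log2 fold change 1.12, adjusted p = 0.156), and the cotransporter Slc12a3 had 42.2 to 57.7 FPKM at Day 0 and 18.6, 51.1, 18.6 and 18.3 FPKM at Day 3 (log2 fold change -0.95, adjusted p = 0.117). Slc12a3 was at the Day 0 level in Day 3 mouse 2.

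Of 21 collecting duct genes, edgeR called 4 lower and none higher (4.28% and 1.26% of all genes), or 1 lower with DESeq2's size factors (1.74%), while DESeq2 called 4 lower and 2 higher and limma voom 7 lower and 3 higher. Rhbg and Rhcg, ammonia channels, had log2 fold changes of -2.51 (SE 0.519) and -0.99 (SE 0.231), and Atp6v1g3, a proton pump subunit of intercalated cells, had -1.14 (SE 0.256). Rhbg measured 12.9, 25.2, 47.2 and 7.07 FPKM at Day 0 and 3.48, 5.57, 3.25 and 3.69 FPKM at Day 3. Fxyd4 also fell (log2 fold change -1.49). The water channel Aqp2 measured 307 to 867 FPKM at Day 0 and 347 to 439 FPKM at Day 3 and did not pass (log2 fold change -0.63, adjusted p = 0.19). Among 16 renal hormone and vasoactive genes, edgeR called 1 lower (4.28% of all genes), DESeq2 1 lower and 2 higher, and limma voom 3 lower and 5 higher. The edgeR call was Pth1r, the parathyroid hormone receptor (log2 fold change -1.204, SE 0.218), from 218 to 360 FPKM to 115 to 153 FPKM.

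**Figure D2:**
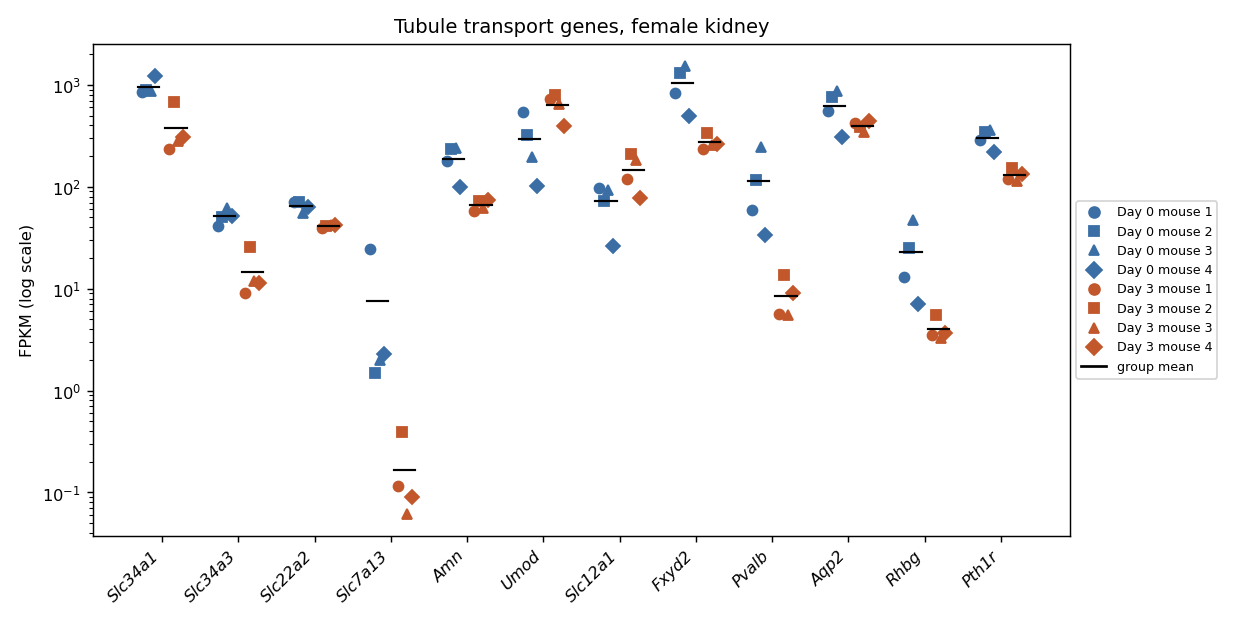
FPKM (log axis) of 12 tubule genes in each female mouse at Day 0 (blue) and Day 3 (orange), with a black line at the group mean. Slc34a1 ranges from 856 to 1232 FPKM at Day 0 and from 237 to 679 FPKM at Day 3, while Umod and Slc12a1 did not pass the test.

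In metabolism and stress defense, edgeR called 4 of 36 genes of fatty acid oxidation and PPARA targets higher and 1 lower (1.26% and 4.28% of all genes), DESeq2 12 higher and 4 lower, and limma voom 15 higher and 7 lower. The omega-hydroxylases Cyp4a10 and Cyp4a31 and the peroxisomal enzyme Ehhadh had log2 fold changes of 1.97 (SE 0.420), 1.76 (SE 0.352) and 1.27 (SE 0.270). Cyp4a10 measured 87.6, 91.5, 83.5 and 83.7 FPKM at Day 0 and 406, 100.01, 370.04 and 479 FPKM at Day 3, so Day 3 mouse 2 lay just above Day 0. Cyp4a genes are close copies of each other, and reads shared between them may be assigned to either. Etfb, an electron carrier of the mitochondrial pathway, fell (log2 fold change -3.07, SE 0.701), from 134, 321, 761 and 52.6 FPKM to 34.6, 28.9, 36.3 and 48.2 FPKM. Cpt1a, the carnitine transferase that admits fatty acids to mitochondria, measured 25.1 to 51.5 FPKM at Day 0 and 54.7 to 72.9 FPKM at Day 3 and did not pass (log2 fold change 0.89, adjusted p = 0.0548). Among 17 glycolysis genes edgeR called none (7 at an unadjusted p under 0.05), DESeq2 called 4 lower and limma voom 2 higher and 9 lower. Among 9 genes of gluconeogenesis and fructose metabolism, Pck1 included, edgeR called none (2 at an unadjusted p under 0.05), while DESeq2 called 2 lower and limma voom 1 higher and 2 lower.

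Of 25 Nrf2 targets and genes of heme and metal binding, edgeR called 5 higher and 1 lower (1.26% and 4.28% of all genes), DESeq2 10 higher and 5 lower, and limma voom 10 higher and 6 lower. Gclc, the first enzyme of glutathione synthesis, measured 34.5, 22.2, 31.6 and 31.3 FPKM at Day 0 and 115, 68.1, 118 and 93.4 FPKM at Day 3 (log2 fold change 1.73, SE 0.237). Gsta1, a glutathione transferase, and Nfe2l2, which encodes Nrf2 itself, rose by 2.14 (SE 0.439) and 1.06 (SE 0.219) on the log2 scale. Ftl1, the ferritin light chain, fell from 1076 to 3352 FPKM to 625 to 788 FPKM (log2 fold change -1.82, SE 0.360). Heme oxygenase (Hmox1) measured 8.47, 7.39, 1.15 and 7.70 FPKM at Day 0 and 24.8, 7.33, 19.2 and 18.2 FPKM at Day 3, and did not pass (log2 fold change 1.48, adjusted p = 0.123). The plasma glutathione peroxidase Gpx3 measured 20286 to 72020 FPKM at Day 0 and 11253 to 15070 FPKM at Day 3 without overlap, and did not pass (log2 fold change -1.53, adjusted p = 0.0694). Of 23 genes of the integrated stress response, edgeR called 1 higher and 3 lower (1.26% and 4.28% of all genes), or 1 and 1 with DESeq2's size factors, DESeq2 3 higher and 4 lower, and limma voom 5 higher and 5 lower. The amino acid transporter subunit Slc7a5 had a log2 fold change of 1.76, while its partner subunit Slc3a2, Nupr1 and Phgdh had -0.72, -0.67 and -0.95.

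Among 33 cell cycle genes edgeR called none (2 at an unadjusted p under 0.05), DESeq2 called 1 higher and limma voom 4 higher and 1 lower. The proliferation marker Mki67 measured 0.116 to 0.288 FPKM at Day 0 and 0.152 to 0.251 FPKM at Day 3 (log2 fold change -0.21, adjusted p = 0.717). Of 24 matrix and fibrosis genes, the smooth muscle actin gene Acta2 fell by edgeR's test (4.28% of all genes were called lower, log2 fold change -0.90, SE 0.171), while DESeq2 called 6 higher and 2 lower and limma voom 6 higher and 4 lower.

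**Figure D3:**
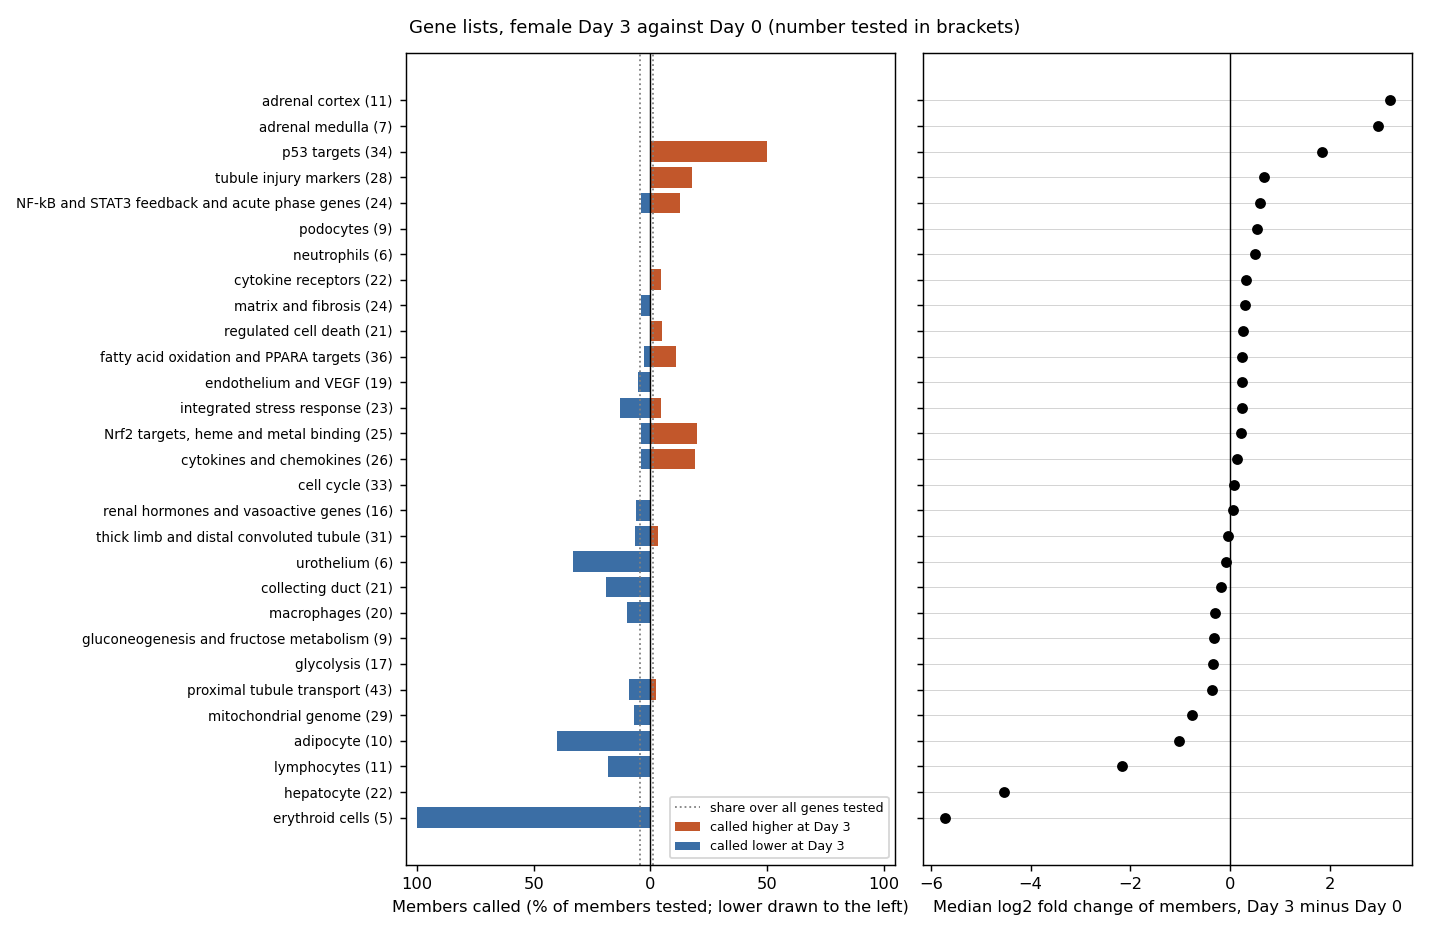
Share of each list's tested members that were called higher (orange) or lower (blue, drawn to the left) at Day 3, with the share over all genes tested as dotted lines, and on the right the median log2 fold change of each list's tested members. By edgeR the p53 targets have 17 of 34 members called higher, and all 5 erythroid genes are called lower. The hepatocyte and adrenal lists have medians far from 0 and no member called by edgeR.

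The 8 largest rises among the DEGs that met the naming rule also took in Zfp365, a zinc finger gene (5.47 on the log2 scale, SE 1.10), and Ugt1a10, a glucuronosyltransferase (5.14, SE 1.13) whose locus shares exons with its family, so that its reads may come from other members. The 8 largest falls held 4 globin genes, Slc7a13, Orm1, Gapdh and Mir703. Gapdh, the glycolytic enzyme (chr6:125161715-125166467), measured 101, 160, 138 and 46.7 FPKM at Day 0 and 1.02, 0.970, 4.56 and 2.99 FPKM at Day 3 (log2 fold change -5.54, SE 0.669). Gapdh has many near-identical copies in the mouse genome, so the assignment of its reads is uncertain. Gapdh was not in the glycolysis list. Mir703, a short miRNA gene, had a log2 fold change of -3.74 (SE 0.854), and a library of long RNA does not measure its mature product.

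Red cell genes and some lymphocyte and macrophage genes were lower at Day 3. All 5 erythroid genes fell (4.28% of all genes), with a median of -5.72. The adult beta-globin gene Hbb-bs (chr7:103826534-103828096) measured 480, 697, 1607 and 220 FPKM at Day 0 and 2.27, 48.7, 3.94 and 1.63 FPKM at Day 3 (log2 fold change -5.72, SE 1.29). Hba-a1, Hba-a2 and Hbb-bt had log2 fold changes of -5.99, -7.003 and -5.43, and the paired copies of alpha- and beta-globin share reads. Alas2, the erythroid heme synthesis enzyme, fell from 2.19 to 3.06 FPKM to 0.122 to 0.710 FPKM (log2 fold change -3.04, SE 0.523). Day 3 mouse 2 had 97.7 FPKM over the 5 genes in sum, against 3.47 to 8.74 FPKM in the other Day 3 mice and 521 to 3516 FPKM at Day 0, so it stood apart from its group while remaining below Day 0.

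Of 11 lymphocyte genes tested, edgeR called 2 lower (4.28% of all genes), DESeq2 7 and limma voom 9, and none of the tools called any higher. Trbc2, a T cell receptor constant gene, measured 5.44, 2.23, 4.24 and 1.51 FPKM at Day 0 and 0.248, 0.448, 0.160 and 0.281 FPKM at Day 3 (log2 fold change -3.53, SE 0.557), and the cytotoxic granule gene Nkg7 had a log2 fold change of -3.50 (SE 0.574). Their list median was -2.18. Of 20 macrophage genes, Lyz2 and the complement gene C1qa fell by edgeR's test (4.28% of all genes were called lower, log2 fold changes -0.89 and -1.81), while DESeq2 called 6 lower and 3 higher and limma voom 6 lower and 2 higher. Neutrophil genes were low throughout: 6 of 14 could be tested, none was called by edgeR, DESeq2 or limma voom and 0 had an unadjusted p under 0.05, the defining marker Ly6g was listed at 0 in 7 of 8 libraries, and Mpo in all 8. S100a9 measured 1.03, 0.621, 5.03 and 0.720 FPKM at Day 0 and 3.90, 0.722, 2.92 and 4.74 FPKM at Day 3 (log2 fold change 0.80, adjusted p = 0.496).

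A family chosen after the values were seen, the MHC class II genes that present antigen, had 6 of 10 members called lower and none higher by edgeR (4.28% and 1.26% of all genes), with a median of -1.88. Its H2-Eb1 measured 101, 153, 127 and 57.0 FPKM at Day 0 and 13.5, 36.8, 16.3 and 14.3 FPKM at Day 3 (log2 fold change -2.44, SE 0.409), and Cd74, the invariant chain, fell by 2.26. Nuclear-encoded subunits of the respiratory chain, chosen in the same way, had 48 of 85 called lower and none higher by edgeR (median -1.47), or 16 lower with DESeq2's size factors (1.74% of all genes), and DESeq2 called 76 lower and 1 higher and limma voom 79 lower. Cox8b and Cox6a2, forms of cytochrome oxidase subunits found in muscle and brown fat, had log2 fold changes of -3.29 (SE 0.488) and -3.37 (SE 0.458), and Atp5k, a subunit of ATP synthase, had -2.74 (SE 0.541). Cytosolic ribosomal proteins had 6 of 81 called lower by edgeR (4.28% of all genes, median -1.27), or 1 with DESeq2's size factors (1.74%), while DESeq2 called 55 lower and limma voom 71.

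The median gene length of these families was 1569 to 1770 bases, though each holds longer genes, and gene length moved with the result across the transcriptome. The median log2 fold change went from -0.65 in the 1709 genes with the shortest models to 0.36 in the 1707 with the longest, and the median length was 1406 bases for DEGs that fell, 4098 for DEGs that rose and 3818 for all genes tested. Within libraries, the shortest minus the longest of these groups (centered log2 CPM) was 0.672, 1.06 and 0.952 in Day 0 mice 1 to 3, -0.474 in Day 0 mouse 4 and -0.641 to -0.183 at Day 3. Day 0 mouse 4 therefore lay with the Day 3 libraries in this measure. With the length trend of each library removed, the median became -1.09 for respiratory chain genes, -0.91 for ribosomal proteins, -1.62 for MHC class II genes and 1.73 for p53 targets, and no gene passed an adjusted p of 0.05 (lowest 0.0596, with 5027 at an unadjusted p under 0.05).

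**Figure D4:**
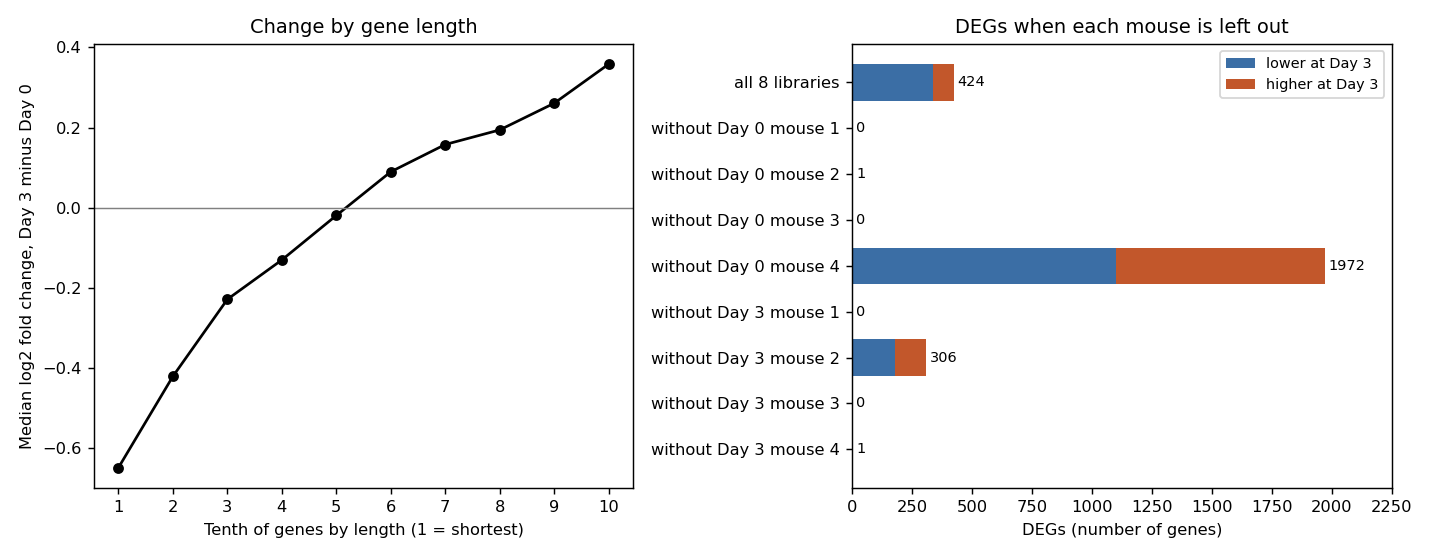
Left, median log2 fold change (Day 3 minus Day 0) for genes in 10 groups by length, which goes from -0.65 to 0.36. Right, number of DEGs with all 8 libraries and without each mouse in turn, which is 424 with all, 1972 without Day 0 mouse 4, 306 without Day 3 mouse 2 and at most 1 without any other mouse.

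The summed level of 26 hepatocyte genes was 149, 10789, 543 and 65.0 FPKM in Day 0 mice 1 to 4 and 110 to 293 FPKM at Day 3. Albumin (Alb) measured 5.82, 2926, 65.8 and 4.20 FPKM at Day 0 and 3.75, 112, 10.5 and 10.4 FPKM at Day 3, and Apoa2, Apoa1, Hamp, Hpx and Mup3 in Day 0 mouse 2 measured 2618, 996, 420, 397 and 393 FPKM. In that library, 26 of the 26 genes had their highest value of the 8. The list median was -4.54, with 13 of 22 members at an unadjusted p under 0.05, none called by edgeR, 2 called lower by DESeq2 and 1 by limma voom, and it became -0.00093 without Day 0 mouse 2 and Day 3 mouse 4. The remaining hepatocyte genes (Ahsg, Serpina1a, Serpina1b, Serpina1c, Serpina3k, Ttr, Cps1, Tat, Cyp3a11, Cyp2c29, Trf, Apob, Apoc3, Apoh, F2, Ambp, Mup20, Cyp8b1, Cyp7a1 and Itih3) measured 0.738 to 759 FPKM in Day 0 mouse 2.

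Adrenal cortex genes summed to 42.1, 203, 66.2 and 33.9 FPKM in Day 0 mice 1 to 4 and to 59.6, 38.9, 794 and 999 FPKM in Day 3 mice 1 to 4, so Day 3 mice 3 and 4 both carried them. Cyp11b1, the enzyme that makes corticosterone in the cortex, measured 0, 7.001, 0.383 and 0 FPKM at Day 0 and 0.178, 0.917, 84.2 and 99.7 FPKM at Day 3. Star, Akr1b7, Hsd3b1, Cyp21a1, Cyp11a1, Mc2r and Nr5a1 measured 5.99 to 276 FPKM in Day 3 mice 3 and 4. Day 3 mouse 1 held 30.7 FPKM of Hsd3b1 and 3.20 FPKM of Cyp11a1, with Cyp21a1 at 0.435 FPKM. Scarb1 reached 15.8 and 17.0 FPKM in Day 3 mice 3 and 4 against 1.21 to 4.82 FPKM elsewhere, while Fdx1 and Mrap, which measured 17.1 to 47.7 and 1.95 to 16.0 FPKM, overlapped between these mice and the others, and the aldosterone synthase gene Cyp11b2 was under 0.1 FPKM in every library. Of 11 members tested none was called by edgeR (4 at an unadjusted p under 0.05), 3 were called higher by DESeq2 and none by limma voom.

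Genes of the adrenal medulla, which makes catecholamines, followed the cortex genes in the same libraries. Chga and Chgb, granins of secretory granules, measured 19.7 and 15.6 FPKM in Day 3 mouse 3 and 25.0 and 20.2 FPKM in mouse 4, and at most 1.77 FPKM elsewhere. Pnmt, Th and Dbh measured 2.32 to 12.2 FPKM in these mice and at most 0.515 FPKM in the others. Slc18a1 and Npy, at 8.42 to 29.2 and 1.28 to 8.05 FPKM over the 8 libraries, did not single them out. Of 7 tested, edgeR called none (1 at an unadjusted p under 0.05), DESeq2 none and limma voom 1 lower. Without Day 0 mouse 2 and Day 3 mice 3 and 4, a comparison of 3 against 2 libraries, no gene passed (lowest adjusted p 0.561, with 941 at an unadjusted p under 0.05), and the log2 fold changes of Krt20, Havcr1 and Cdkn1a were 6.29, 5.85 and 4.04. Without Day 0 mouse 2 and Day 3 mouse 4, the medians were 1.67 for p53 targets, 0.80 for injury markers, -0.39 for proximal tubule transport and -5.37 for erythroid genes, again with no member called.

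Fat and other tissue markers completed the check. Of 10 adipocyte genes edgeR called 4 lower (4.28% of all genes), DESeq2 5 and limma voom 3. Those of edgeR were Cidea (20.5 to 48.4 FPKM at Day 0 and 6.28 to 9.03 at Day 3), Fabp4 (61.1 to 94.5 and 24.9 to 37.6 FPKM), Retn (21.3 to 64.9 and 6.91 to 17.3 FPKM) and Ucp1 (31.5 to 59.6 and 3.21 to 15.9 FPKM), of which Ucp1 marks brown fat. Cfd (345 to 995 and 203 to 396 FPKM), Adipoq (30.2 to 68.7 and 20.9 to 36.8 FPKM), Car3 (55.2 to 212 and 46.1 to 83.2 FPKM), Plin1 (3.73 to 25.9 and 4.57 to 10.04 FPKM), Cidec (11.5 to 66.6 and 25.7 to 54.7 FPKM) and Lep (0.226 to 2.08 and 0.448 to 1.82 FPKM) did not pass. The part of fat around the kidney in the falls of Cox8b and Cox6a2 was not tested. Pancreatic enzyme genes (Cel, Cela2a, Cela3b, Cpa1, Cpb1, Ctrb1, Pnlip and Prss2) measured at most 0.0995 FPKM except Cela1, an elastase, which fell from 50.4 to 136 FPKM to 19.5 to 37.7 FPKM. Skeletal muscle genes were low: Mylpf measured 1.14 to 2.60 FPKM at Day 0 and 0.562 to 0.730 FPKM at Day 3, and Myh1, Acta1, Tnnt3, Ckm, Myh2, Myh4 and Tnnc2 measured at most 1.07 FPKM, with Tnnc2 at 0 in every library. Of 3 muscle genes tested, edgeR called none (1 at an unadjusted p under 0.05), and DESeq2 and limma voom called 1 lower each. Of 6 urothelial genes edgeR called 2 lower (4.28% of all genes), Upk3a (8.03 to 20.3 and 5.02 to 5.45 FPKM) and Upk2 (3.27 to 6.24 and 1.72 to 2.01 FPKM). Krt5, Upk1b, Upk3b and Upk1a, at 1.42 to 5.70 FPKM over the 8 libraries, had log2 fold changes of -0.09 to 0.14 and did not pass. The genes that resemble ribosomal RNA took 0.161 to 0.418% of counts at Day 0 and 0.594 to 0.933% at Day 3, without overlap.

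**Figure D5:**
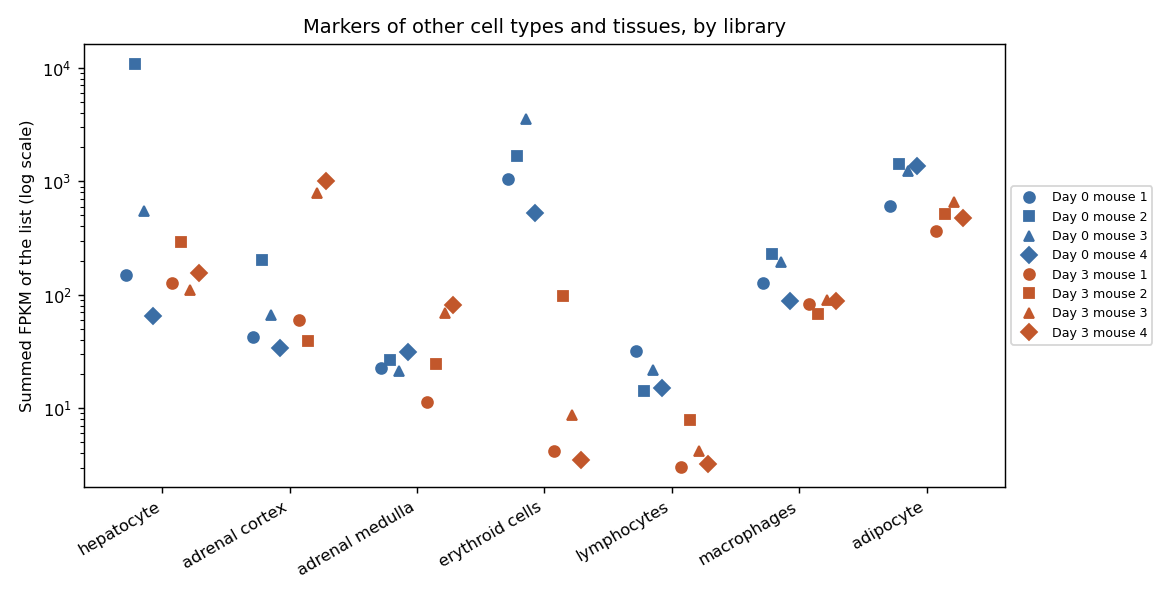
Summed FPKM (log axis) of marker lists in each female library at Day 0 (blue) and Day 3 (orange). Hepatocyte genes reach 10789 FPKM in Day 0 mouse 2, adrenal cortex genes reach 794 and 999 FPKM in Day 3 mice 3 and 4, and erythroid genes are lower in every Day 3 library than in any Day 0 library.

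Day 3 was also compared directly with Day 2 in females, which shows whether the levels moved on between these days. Of 16974 genes tested, edgeR called 0 higher (0%) and 0 lower (0%), with 678 at an unadjusted p under 0.05, while DESeq2 found 45 DEGs higher (0.271%) and 1 lower (0.00601%). Cdkn1a at Day 2 measured 78.9, 88.1, 99.6 and 24.3 FPKM, which overlaps Day 3 (log2 difference of Day 3 minus Day 2 -0.11, SE 0.654). Krt20 at Day 2 measured 1.99, 32.6, 48.0 and 2.35 FPKM (difference 0.11, SE 1.06). Lcn2 measured 3.28, 5.71, 7.44 and 2.42 FPKM at Day 2, below 3 of the Day 3 mice but not mouse 2 (difference 2.74, SE 0.686, adjusted p = 0.617), and Havcr1 measured 0.370, 3.01, 3.72 and 0.337 FPKM (difference 2.76, SE 0.983, adjusted p = 0.969). Cxcl1 at Day 2 spread from 0.641 to 6.20 FPKM. Without Day 3 mouse 2, 28 DEGs were found, 27 of them higher at Day 3.

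Whether the Day 3 change differed between females and males was tested as an interaction of sex and day. Of 17598 genes tested, edgeR called 2 (0.0114%), DESeq2 82 and limma voom 2116. Ppard, a nuclear receptor for fatty acids, measured 5.05 to 6.34 FPKM in Day 0 females and 3.01 to 4.004 FPKM in Day 3 females, and 8.26 to 13.2 FPKM in Day 0 males and 1.90 to 2.18 FPKM in Day 3 males. It was lower at Day 3 in both sexes, and less so in females (difference of the log2 changes 1.73, SE 0.217, adjusted p = 0.0123). Kynu, the kynureninase of tryptophan breakdown, measured 3.71, 5.60, 4.36 and 7.22 FPKM at Day 0 and 2.29, 5.47, 3.31 and 3.64 FPKM at Day 3 in females, and 0.339 to 0.811 FPKM at Day 0 and 2.62 to 3.00 FPKM at Day 3 in males (difference -2.94, SE 0.407, adjusted p = 0.0213). Male levels of Kynu at Day 3 lay within the range of Day 3 females. Among males, leaving out Day 0 mouse 1 or any of Day 3 mice 1, 3 and 4 ended the call of Ppard, and Kynu did not pass without any one of male Day 0 mice 1 to 3, the 4 male Day 3 mice and female Day 3 mice 3 and 4, nor in the fit over all 8 groups. Over all settings the adjusted p ranged from 1.55e-10 to 0.0692 for Ppard and from 6.99e-08 to 0.391 for Kynu. Of 601 members of the gene lists tested, edgeR called none, DESeq2 5 and limma voom 87, beside 2, 82 and 2116 of all 17598 genes. The interactions of Havcr1 (4.72, SE 1.29, adjusted p = 0.478), Krt20 (4.24, SE 1.51, adjusted p = 0.558) and Cdkn1a (1.13, SE 0.807, adjusted p = 0.883) did not pass, which does not show that the sexes responded alike.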

How the data were processed

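Kidney RNA was sequenced by the authors as read pairs on an Illumina HiSeq instrument. The deposited counts are whole reads per gene, and the deposited FPKM values scale them to gene length and an effective library size. Labels list HTSeq, DESeq2, GRCm39 and mm39 in the submitters' processing notes, while coordinates in the files match GRCm38, the build the methods name; the aligner, versions and strandedness are not given in the sources used here, so reads of overlapping or antisense genes cannot be separated. The library scaling behind the FPKM was 1.15 to 1.23 times the TMM scaling of the fit.

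Groups came from the sex and day in the labels, with 4 mice each. Counts were fitted in edgeR 4.0.16 (R 4.3.3, limma 3.58.1) with TMM factors, filterByExpr and robust quasi-likelihood tests, two-sided, with Benjamini-Hochberg adjustment over all genes tested; an SE is the absolute log2 fold change over the square root of F. Alternatives were DESeq2 1.42.0, limma voom with quality weights, other filters and scalings, a fit over all 8 groups, and libraries left out. The tests were also run on simulated counts with a dispersion of 0.05 for every gene and 4-fold changes. That simulation held no outlying library and no length trend, so it does not show how the tests behave with them. The table has 54532 genes, and the 8 libraries held 23647121 to 35961325 counts. Because each library is 1 mouse, the spread between libraries holds biological and technical variation.

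The gene lists and the genes named were chosen with earlier results of these data known. Genes named are a fixed set, the 8 largest rises and falls among DEGs without overlap and with a mean of at least 1 FPKM (Gm and RIKEN models and pseudogenes left out), up to 3 called members of each list per direction, called genes of the other tests, and every marker of another tissue, except a few genes that are not reported here. Further list members, and the families so described, were named after their values were seen. A floor of 3 counts per library was used for genes at 0.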

Additional observations from a re-analysis of the deposited data

Results flagged for a closer look

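In 166 groups of 4 mice, comprising the fixed genes, the largest rises and falls, list sums and library measures at Day 0 and Day 3, 27 held 1 mouse that stood apart by Dixon's criterion. The groups share mice and some share genes, as the globin genes and the erythroid sum do. The 27 therefore cannot be set against a chance rate. Day 3 mouse 2 accounted for 13 of these and Day 0 mouse 4 for 6.

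Day 3 mouse 2 was lowest in Ccng1 (43.3 FPKM, others 201 to 219), in the sum of cytokines and chemokines (92.5 FPKM, others 136 to 144) and in that of NF-kB, STAT3 and acute phase genes (153 FPKM, others 302 to 325). It was highest in Slc34a1 (679 FPKM, others 237 to 306), Slc5a2 (101 FPKM, others 58.7 to 62.3), Slc12a3 (51.1 FPKM, others 18.3 to 18.6) and Kl (48.3 FPKM, others 19.1 to 22.6). It was also highest in Hba-a2 (2.89 FPKM), Hba-a1 (40.6 FPKM), Hbb-bs (48.7 FPKM), Hbb-bt (4.73 FPKM), the sum of the erythroid list (97.7 FPKM) and Slc7a13 (0.393 FPKM). In each of these genes the other 3 Day 3 mice lay farther than mouse 2 in the direction of the Day 3 difference in means.

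Day 0 mouse 4 was highest in Slc34a1 (1232 FPKM, others 856 to 891), Kl (66.7 FPKM, others 31.2 to 34.5), Pck1 (1363 FPKM, others 102 to 264), Il1b (2.01 FPKM, others 0 to 0.283), the sum of gluconeogenesis and fructose genes (4845 FPKM, others 3267 to 3406) and that of matrix and fibrosis genes (282 FPKM, others 164 to 175). Day 0 mouse 3, in whose library 16265 genes were detected, the fewest of the 8, was highest in Vcam1 (1.39 FPKM), Ccl2 (2.67 FPKM) and the neutrophil sum (10.4 FPKM), and lowest in Hmox1 (1.15 FPKM, others 7.39 to 8.47). Day 0 mouse 2 was highest in the hepatocyte sum (10790 FPKM, others 65.0 to 543), Orm1 (154 FPKM) and the sum of NF-kB, STAT3 and acute phase genes (686 FPKM, others 167 to 234), and Day 0 mouse 1 in Slc7a13 (24.6 FPKM, others 1.48 to 2.31).

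The interaction test of the change at Day 3 in females minus that in males called Ppard (1.73, SE 0.217, adjusted p = 0.0123) and Kynu (-2.94, SE 0.407, adjusted p = 0.0213).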

How the results depend on the processing

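Of 774 values of named genes under other settings, 481 kept their direction and side of the threshold, 243 kept the direction but lost the call, 31 gained it and 19 changed sign. The 481 include genes not called with all 8 libraries that stayed uncalled, while the 243 all belong to called genes. Of 648 counts of called list members under other settings, 408 moved and 240 stayed the same or close. DEGs of Day 3 against Day 0 numbered 424 (20.5% higher), and 225 with DESeq2's size factors (28.4% higher), 961 with DESeq2 (27.2%), 1685 with limma voom and quality weights (53.7%), 1183 in a fit over all 8 groups (33.9%), 755 with an absolute log2 fold change over 1, 945 with the adjusted p alone, 0 without Day 0 mouse 2 and Day 3 mouse 4, 0 without Day 3 mouse 3 as well and 0 with the length trend removed (the last 2 chosen after seeing the data). Without each mouse in turn they ranged from 0 to 1972 (44.3% higher without Day 0 mouse 4, 41.8% without Day 3 mouse 2). Day 3 against Day 2 gave 46 with DESeq2, 2 without a filter, 2 with limma voom and 0 to 28 without each mouse. The interaction, counted by the adjusted p alone, gave 82 calls with DESeq2, 2116 with limma voom and 0 to 6 without each mouse. The cause of these differences was not tested.

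The signs that changed were of genes that did not pass. Clu was -0.00751 with limma voom and -0.0882 to 0.345 without each mouse, Ccl2 0.341 with limma voom, 0.139 with the length trend removed and -0.671 to 0.485 without each mouse, and Il1b 0.564 with limma voom and -1.23 to 1.09 without each mouse. Tnf was -0.16 without Day 0 mouse 2 and Day 3 mouse 4 and -0.344 without Day 3 mouse 3 as well, and Mki67 0.161 in the latter. Slc5a2 spanned -0.608 to 0.195 and Slc22a6 -0.421 to 0.0248 without each mouse. Egf was -0.201 with limma voom, -0.277 with the length trend removed and -0.323 to 0.389 without each mouse.

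Mouse numbers are shared between groups in the labels, but correlations of same-numbered mice (0.139, 0.0178, -0.0155 and -0.133) do not show a pairing, and only mouse 1 correlated best with its own number. A replicate block gave 0 DEGs for Day 3 against Day 0 (lowest adjusted p 0.104, with 4236 genes at an unadjusted p under 0.05) and 5 for Day 3 against Day 2. For the interaction it gave 4 calls by the adjusted p alone. With the block Il1b was 0.55, Slc5a2 0.0425 and Egf -0.0261. Totals of 23647121 to 35961325 counts per library limit what can be said of genes with few counts.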

Other observations

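Several other compartments of the kidney were described by few calls. Of 19 endothelial and VEGF genes, edgeR called 1 lower (4.28% of all genes), Emcn, a glycoprotein of capillary endothelium. Emcn measured 14.5, 16.48, 20.3 and 9.17 FPKM at Day 0 and 5.54, 9.34, 7.30 and 5.95 FPKM at Day 3 (log2 fold change -1.10, SE 0.258). Its groups overlapped in 1 pair of mice, Day 0 mouse 4 and Day 3 mouse 2. DESeq2 called 3 of the 19 genes lower (14.3% of all genes), and limma voom 6 higher and 4 lower (23.5% and 24.3%). Of 9 podocyte genes edgeR called none (2 at an unadjusted p under 0.05), DESeq2 1 higher and limma voom 7 higher. Podxl, the main sialoprotein of podocyte foot processes, measured 27.3, 28.4, 21.5 and 41.6 FPKM at Day 0 and 45.6, 46.5, 42.8 and 41.9 FPKM at Day 3 without overlap (log2 fold change 0.57, adjusted p = 0.12), and it was chosen after its values were seen.

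Of 29 genes of the mitochondrial genome, edgeR called 2 lower (4.28% of all genes) and DESeq2 8 lower (14.3%). With limma voom 6 were higher and 9 lower (23.5% and 24.3%). The complex I gene mt-Nd3 measured 81.4, 58.7, 91.3 and 81.6 FPKM at Day 0 and 13.3, 15.03, 14.99 and 21.3 FPKM at Day 3 (log2 fold change -2.27, SE 0.214) and had the lowest adjusted p of all genes tested (0.0311). The complex IV gene mt-Co3 had a log2 fold change of -1.31 (SE 0.318). Of 3 tested genes that resemble ribosomal RNA, edgeR called none (2 at an unadjusted p under 0.05), DESeq2 2 higher and limma voom 3 higher.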
